A study of Brassica napus with 6 samples.

Results

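The distal end of chromosome A01 of Brassica napus (oilseed rape) and the matching stretch of chromosome C01 differed between a hairy and a glabrous line in which copy of many genes was on. The members are all genes numbered from BnaA01g057980 to BnaA01g065790 and from BnaC01g067640 to BnaC01g076210, 790 on A01 and 860 on C01, 1650 of 145279 genes in the deposited table. These stretches were picked because their genes differ between the lines in these very leaves, so every difference between the lines reported for a member is a description and carries no test.

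The series compared 2 near-isogenic doubled haploid lines, DH6-47, with ca. 600 trichomes on a leaf, and DH6-110, which is glabrous. Both go back to Quantum/LG3260 and CN113136 as parents, and no treatment was applied to either. Plants grew in a cabinet at 16 h light and 8 h dark and at 20 to 22 °C, and each library held the poly-A RNA of 1 very young leaf, the third of its plant. The labels list 3 leaves per line and the design text names 2. Values were at hand for replicates 1 and 3 of each line (hairy 1, hairy 3, glabrous 1, glabrous 3), and the replicate 2 leaves were not analysed here. Each line is a single doubled haploid, so the hair phenotype and any other difference between these lines cannot be told apart. In bulk leaves, fewer cells of a type and less RNA per cell also cannot be told apart.

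Brassica napus carries an A genome derived from Brassica rapa and a C genome derived from Brassica oleracea, and most genes have a counterpart (homoeolog) on the related chromosome of the other genome. A01 and C01 are such a pair along much of their length. Homoeologous chromosomes can pair and exchange segments, a known source of variation among lines of this species. Some such exchanges, not all, leave a line with one homoeolog in extra copies and without the other. No DNA data were used here, and the number of copies of any gene in these lines was not tested.

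Levels are in TPM (each transcript's share of all transcripts of a leaf, scaled to a fixed total), which account for transcript length, summed over the transcripts of a gene; the number of reads behind them is unknown. TPM totals per leaf lay between 954250 and 962645, and between 39919 and 43209 genes reached 1 TPM. Of the leaf markers, the copies of LHCB1.1, RCA, AS1, FIL and KAN1 were on in all 4 leaves. LHCB1.1, of the light-harvesting complex, summed to 1339 and 1692 TPM in the hairy and 2396 and 3125 TPM in the glabrous leaves, RCA (Rubisco activase) to 571 and 581 TPM and 700.1 and 1415 TPM, and AS1 to 181 and 126 TPM and 193 and 226 TPM. These 3 were lower in both hairy leaves, FIL and KAN1 overlapped between the lines, and the 2 copies matched to RBCS1A summed to at most 2.03 TPM. Copies of seed storage genes and root hair genes summed to under 1 TPM in every leaf, and of the floral genes SEP3 reached 3.43 TPM. A change is the difference of the mean log2(TPM + 1) of the hairy leaves minus that of the glabrous leaves, which understates the change of low genes. Genes with at least 1 TPM in 2 or more leaves were tested with limma over the whole table, and "called" means a Benjamini-Hochberg adjusted p under 0.05 over all 44247 tested genes.

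On A01 every member that was called was higher in the hairy line. Of 790 genes, 298 were at 0 TPM in all 4 leaves and 366 were tested. Of these, 244 were called higher in hairy leaves and 0 lower, where 5.24% of all tested genes were called higher. The median change was 2.20 (quartiles 1.02 and 3.48), against 0.06 over the 1698 tested A01 genes outside the block and 0.03 over all tested genes. With a pseudocount of 0.1 TPM the median change was 4.59, and without the filter on low values it was 1.39. The number called was 130 without hairy 1, 155 without hairy 3 and 160 without glabrous 1. Summed over all A01 members, the level was 9410 and 8843 TPM in the hairy leaves and 1436 and 1736 TPM in the glabrous leaves. The leaves of the lines did not overlap, with hairy higher, for 317 of the 366 tested members, against a background of 21.4%, and with hairy lower for 6.

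On C01 nearly all called members were lower in the hairy line. Of 860 genes, 477 were at 0 TPM in every leaf and 275 were tested. Of these, 111 were called lower in the hairy line and 3 higher, where 4.48% of all tested genes were called lower. The median change was -1.19 (quartiles -2.29 and -0.69), against -0.0015 over the 1806 tested C01 genes outside the block. Without hairy 1, 39 members were called lower, and without hairy 3, 37. Hairy leaves lay below both glabrous leaves for 210 of the 275, against 17.4% of all tested genes. The summed level was 3562 and 3304 TPM in the hairy leaves and 7566 and 7557 TPM in the glabrous leaves. In the authors' deposited table, whose test is not stated, 202 of 629 A01 transcripts with a false discovery rate were higher in the hairy line at a rate under 0.05 and 0 were lower, against 2% and 2.04% of 79668 transcripts. For C01 the authors' deposited table gives 1 higher and 84 lower of 492 transcripts.

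**Figure D1:**
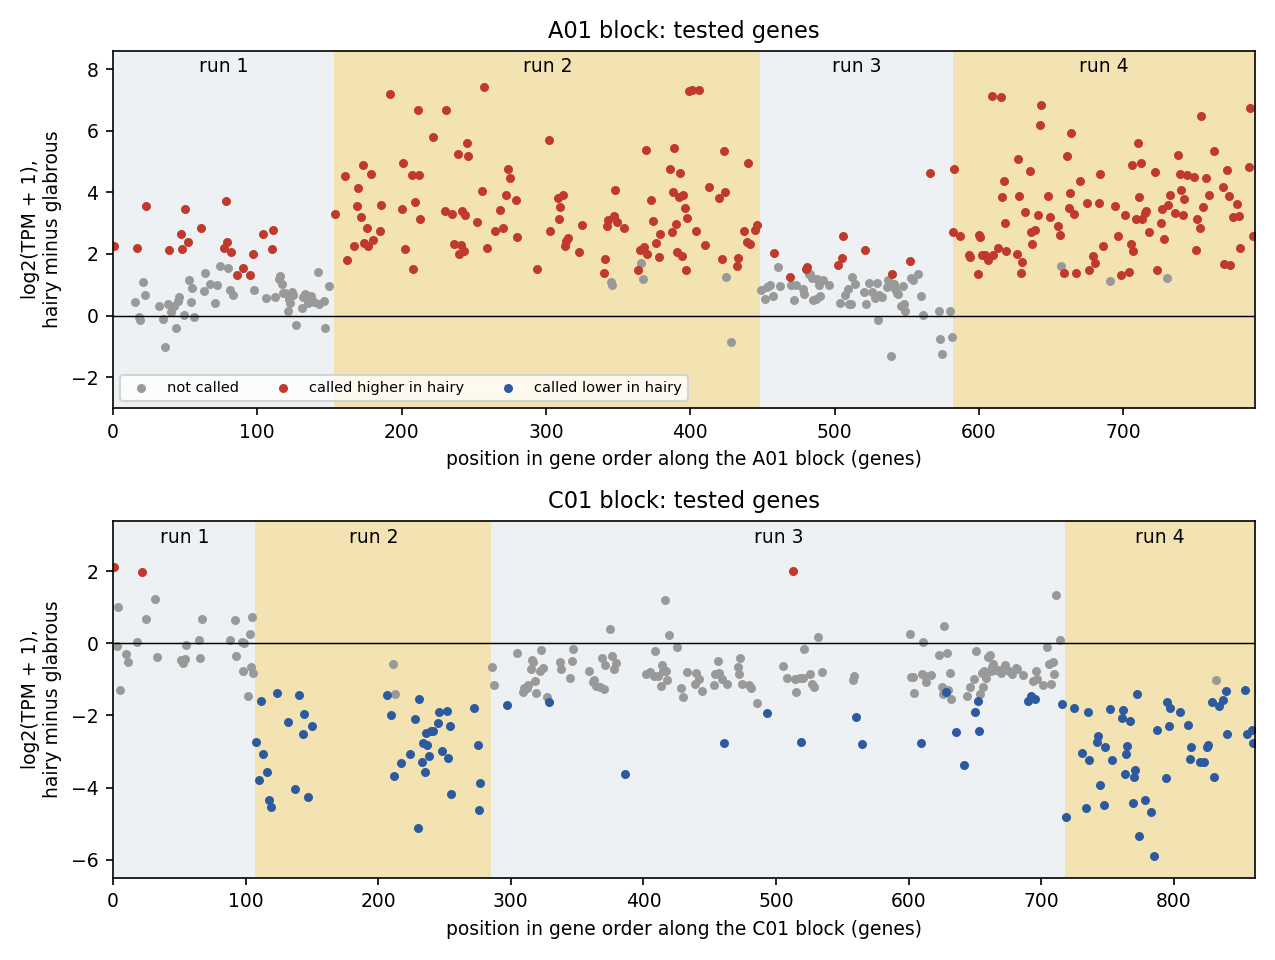
Change of each tested member (log2(TPM + 1), hairy minus glabrous, y axis) in gene order along the A01 block (top) and the C01 block (bottom), with called genes coloured and the 4 runs of each block shaded, yellow where 1 line is low. In A01 runs 2 and 4 nearly every point lies above 1, and in C01 runs 2 and 4 nearly every point lies below -1.

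Within each block the change came in steps. On A01 a gene was taken as low when the glabrous mean was under 10% of the hairy mean, itself at least 1 TPM. On C01 the lines were swapped. Genes low the other way were not scanned for, so which line is low in a run was fixed by the rule. Consecutive genes were joined into runs, 4 on each chromosome. A01 run 1 (BnaA01g057980.4DH to BnaA01g059430.4DH) was on in both lines, with 9 of 74 tested genes low in the glabrous line, 20 called higher and a median change of 0.76. A01 run 2 (BnaA01g059470.4DH to BnaA01g062400.4DH) was low in the glabrous line at 107 of 117 tested genes, with 111 called higher and a median of 3.06. Its median level was 10.6 and 8.36 TPM in the hairy leaves and 0 and 0.093 TPM in the glabrous leaves.

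A01 run 3 (BnaA01g062430.4DH to BnaA01g063730.4DH) was again on in both lines, with 2 of 71 tested genes low, 12 called higher and a median change of 0.92. A01 run 4 (BnaA01g063740.4DH to BnaA01g065790.4DH), the outermost, was low in the glabrous line at 103 of 104 tested genes. Of its genes 101 were called, its median change was 3.26, and both hairy leaves lay above both glabrous leaves at all 104. The other 3 were the copies of AT3G03980, AT3G03460 and AT3G02800.

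The C01 runs, scanned only for genes low in the hairy line, had negative median changes. C01 run 1 (BnaC01g067640.4DH to BnaC01g068700.4DH) had 1 low gene of 29 and a median change of -0.05. C01 run 2 (BnaC01g068720.4DH to BnaC01g070390.4DH) was low in the hairy line at 36 of 44 tested genes, with 42 called lower and a median of -2.74. C01 run 3 (BnaC01g070472.4DH to BnaC01g074760.4DH) was on in both lines, with 9 of 151 genes low, 19 called lower, 1 called higher and a median of -0.91. C01 run 4 (BnaC01g074790.4DH to BnaC01g076210.4DH) was low in the hairy line at 41 of 51, with 50 called lower and a median of -2.81.

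Some of the runs that were on in both lines still differed in level. In A01 run 3, 49 of 71 tested genes had both hairy leaves above both glabrous leaves, and 4 had the reverse. In A01 run 1 these numbers were 48 of 74 and 2. In C01 run 3, 109 of 151 had both hairy leaves below both glabrous leaves, and 5 had the reverse. In C01 run 1, 7 of 29 had both hairy leaves higher and 6 both lower, shares of 24.1% and 20.7%, close to the 21.4% and 17.4% of all tested genes. The smallest change that was called in the whole table was 1.24, so a doubling, a change of 1, was below what 2 leaves per line could call.

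Of the 3 steps on each chromosome, 2 fell at the same genes of the Arabidopsis order. The C01 step from run 1 to run 2, between the copies of AT3G14067 and AT3G14020, lies within the span of A01 run 1, and the A01 step from run 3 to run 4, between the copies of AT3G05520 and AT3G05500, lies beyond the end of the C01 block. A01 run 2 ended with the copy of AT3G08730, at 10.6 and 7.14 TPM in the hairy leaves and 0.33 and 0.18 TPM in the glabrous leaves. The next tested A01 gene, the UBC11 copy (BnaA01g062430.4DH; a ubiquitin-conjugating enzyme), stood at 48.4 and 53.4 TPM and 30.4 and 25.8 TPM, so it was on in all 4 leaves. On C01 the copy of AT3G08730 was the last of run 3, at 9.74 and 5.27 TPM in the hairy and 22.1 and 28.7 TPM in the glabrous leaves. The UBC11 copy (BnaC01g074790.4DH) was the first of run 4, at 0.88 and 0.88 TPM and 59.1 and 45.1 TPM. Between these neighbours the line with a low copy and the chromosome that held it both changed.

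Likewise, the copies of AT3G12870 opened A01 run 2 and were among the first 2 tested genes of C01 run 3. On A01 this copy (BnaA01g059470.4DH) stood at 10.0 and 10.2 TPM in the hairy and 0 and 0.27 TPM in the glabrous leaves. On C01 (BnaC01g070480.4DH) it stood at 14.0 and 10.4 TPM and 38.0 and 20.9 TPM. The copies of AT3G12920, a few genes before, had the opposite state, with the A01 copy on in every leaf and the C01 copy (BnaC01g070390.4DH) at 0 and 0 TPM in the hairy and 11.3 and 16.5 TPM in the glabrous leaves. These genes at the steps were chosen after their values were seen.

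At the inner edge of the A01 block, the last 3 tested genes outside were MPK19 (-0.34), CYP72A15 (0.16) and CYP72A7 (-0.10), given as changes. The first 3 inside were the copy of AT3G14590, a calcium-dependent lipid-binding protein (2.25), NCED3, a key enzyme of abscisic acid synthesis (0.44), and GOX1, a photorespiratory glycolate oxidase (2.20). At the inner edge of the C01 block the last 3 tested genes outside were TCP4, a leaf-shape transcription factor (-0.28), the copy of AT1G53260 (0.39) and the copy of AT3G14920 (0.36). The first 3 inside were the copies of AT3G14840, a leucine-rich repeat kinase (2.12), AT3G42170 (-0.06) and RHM3, of rhamnose synthesis (1.01). At both inner edges, then, genes with and without a large change stood side by side.

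At the outer ends little lay beyond the blocks. The last A01 members tested were MPPBETA, a mitochondrial processing peptidase (4.83), RPS19, a ribosomal protein (6.74), and the copy of AT3G01060 (2.58). Of 50 further A01 genes, 44 were under 0.1 TPM in all leaves and 1 was tested, the copy of AT3G02070, at 5.74 and 6.31 TPM in the hairy and 2.74 and 2.01 TPM in the glabrous leaves. On C01 the last members tested were the copies of AT3G06440 (-2.52) and AT3G06410 (-2.41) and CHR11, a chromatin remodeller (-2.76). Of 12 further C01 genes 1 was tested, the copy of AT3G06350, an enzyme of the shikimate pathway, at 33.3 and 18.4 TPM and 39.4 and 57.5 TPM.

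Many members were on in a single line. At 125 A01 members both hairy leaves were at 1 TPM or more and both glabrous leaves under 0.1 TPM, and in 55.2% of them both glabrous leaves were at 0. Over all tested genes this pattern was met in 1.39%. The A01 members of this kind with the highest levels and an Arabidopsis match were GAR1 and 4 others. The GAR1 copy (BnaA01g064520.4DH; AT3G03920, a subunit of the particles that pseudouridylate ribosomal RNA) stood at 51.9 and 68.9 TPM in the hairy leaves and at 0 in both glabrous leaves. The copy of AT3G08880, of unknown function in the deposited annotation, stood at 32.6 and 30.0 TPM in the hairy and 0.069 and 0 TPM in the glabrous leaves.

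The zinc finger gene AT3G12630 had an A01 copy at 21.7 and 37.3 TPM in the hairy leaves and 0 in both glabrous leaves. RPA32B, a subunit of the single-strand DNA binding complex of replication, had an A01 copy at 28.0 and 25.1 TPM in the hairy and 0.066 and 0.097 TPM in the glabrous leaves. FYD (AT3G12570) stood at 30.8 and 18.2 TPM and 0 and 0.055 TPM. None of these 5 copies had a glabrous leaf above 0.1 TPM, as the rule requires. Of the 125, 57 lay in run 2, 65 in run 4 and 3 in run 1.

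On C01, 39 members were on in the glabrous line alone and 1 in the hairy line alone, where 1.67% of all tested genes were on in the glabrous line alone. In 66.7% of the 39 both hairy leaves were at 0. Without hairy 1, 64 members met the rule, a count that leaving out a leaf cannot lower. The highest was the copy of AT3G13310, a DnaJ-domain chaperone (BnaC01g069940.4DH), at 0 in the hairy and 23.1 and 50.0 TPM in the glabrous leaves. RABA5b (BnaC01g075440.4DH), a small GTPase of vesicle traffic, was at 0 in the hairy and 30.4 and 19.9 TPM in the glabrous leaves. The copy of AT3G07680, of the p24 cargo receptor family, was at 0 and 0.082 TPM and 24.96 and 17.9 TPM. The copy of AT3G09080, a WD40-repeat protein, stood at 0.081 and 0 TPM and 12.5 and 17.3 TPM. Of the 39, 13 lay in run 2 and 21 in run 4.

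No A01 member and 3 C01 members were called against the direction of their block. The copy of AT3G14840 (BnaC01g067640.4DH), the first C01 member, read 22.7 and 21.2 TPM in the hairy and 4.09 and 4.46 TPM in the glabrous leaves. The CYP72A13 copy (BnaC01g067850.4DH), a cytochrome P450, read 3.896 and 2.20 TPM in the hairy leaves and 0 in both glabrous leaves. The copy of AT5G05300 (BnaC01g072720.4DH) read 7.04 and 7.68 TPM and 2.09 and 0.38 TPM. The first 2 lie in run 1, close to the inner edge, and that of AT5G05300 lies within run 3.

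The homoeologs were matched through the Arabidopsis gene code in the deposited annotation. The A01 members hold 637 codes and the C01 members 523, of which 409 are shared, 64.2% of the A01 and 78.2% of the C01 codes. For 342 codes exactly 1 member lies on each chromosome, and the order of these pairs along A01 and C01 is nearly the same (Spearman correlation across pairs 0.963). In 236 pairs at least 1 copy was tested. In 95 of them the C01 copy lies in a run that is low in the hairy line, in 125 the A01 copy lies in a run that is low in the glabrous line, and in 16 neither does.

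In each kind of pair, the copy that stayed on was higher in the line where the other copy was low. Where the C01 copy was low in the hairy line, the A01 copy had a median hairy-to-glabrous fold of 1.97 (quartiles 1.56 and 2.47) over the 80 pairs with the A01 copy at 1 TPM or more in every leaf. It was higher in the hairy line in 76 of the 80, against 628 of 1182 pairs outside the blocks. Where the A01 copy was low in the glabrous line, the C01 copy had a median glabrous-to-hairy fold of 2.00 (quartiles 1.66 and 2.50) over 101 pairs. It was higher in the glabrous line in 94 of the 101, against 588 of 1181 pairs outside. With single leaves in place of means, the 2 medians ranged from 1.45 to 2.79 and from 1.65 to 2.44 over the 4 choices of leaves.

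The median pair sum differed little between the lines. Over all 236 pairs the median change was 1.58 for the A01 copy, -1.13 for the C01 copy and 0.05 for the sum, where 1495 pairs of A01 and C01 genes outside the blocks gave 0.05, 0.00 and 0.02. More than 2-fold changes were seen for 154 of the 236 A01 copies, for 134 of the C01 copies and for 35 of the sums (14.8%), against 9.36% of the sums outside. The lines did not overlap for 51 sums with hairy higher (21.6%) and for 39 with hairy lower (16.5%), against 19.3% and 13.1% of the pairs outside. Where the C01 copy was low in the hairy line, the sum had a median change of -0.05 (quartiles -0.34 and 0.31). Where the A01 copy was low in the glabrous line, it was 0.06 (quartiles -0.25 and 0.37). In the 16 pairs with neither copy in a low run, it was 0.26 (quartiles -0.03 and 0.40). The median of all sums moved between -0.17 and 0.28 as each leaf was left out in turn, so its sign was not fixed by these leaves.

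**Figure D2:**
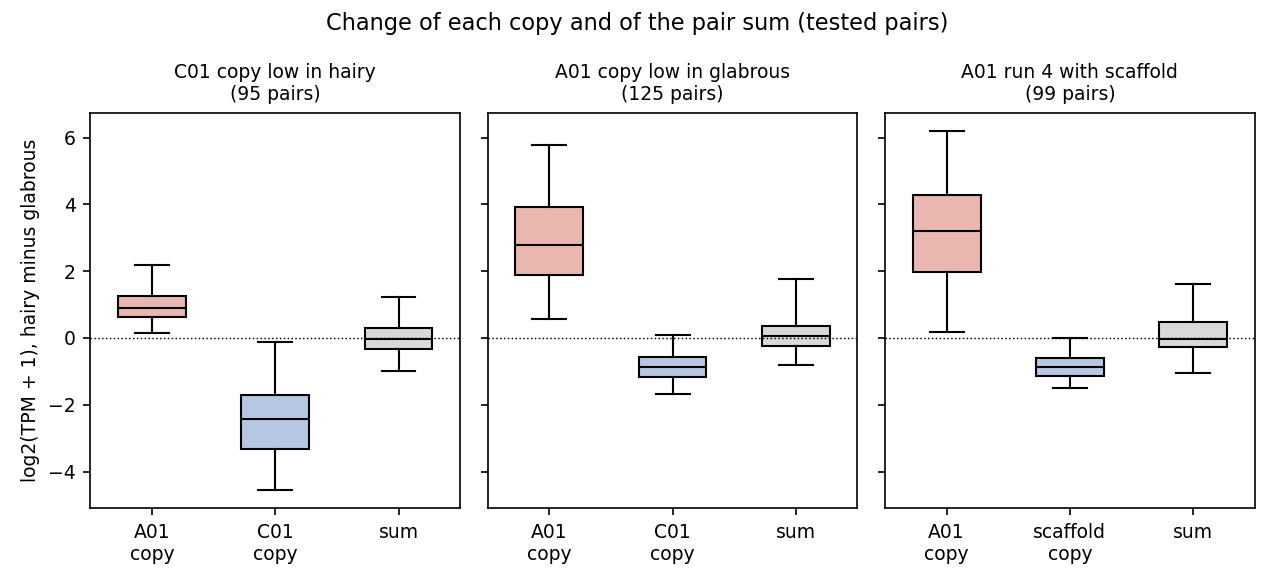
Change (log2(TPM + 1), hairy minus glabrous) of the A01 copy, of its C01 or scaffold counterpart and of their sum, for the 3 kinds of pairs. Boxes span the quartiles with the median as a line, and whiskers reach from the 5th to the 95th percentile of pairs. The copies lie on opposite sides of 0 and the medians of the sums lie between -0.05 and 0.06.

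The share of the A01 copy in the pair sum showed the same steps in every leaf. In pairs whose C01 copy was low in the hairy line, the A01 copy held a median of 99.3% and 99.9% in the hairy leaves and 43.6% and 46.3% in the glabrous leaves. In pairs whose A01 copy was low in the glabrous line, it held 51.9% and 52.1% in the hairy leaves and 0% and 0.28% in the glabrous leaves. Pairs outside the blocks stood near 47.7% in each leaf. So, in both kinds of block pairs just given, 1 line had shares close to those outside the blocks. The other line had almost all of its transcripts from 1 chromosome. Block pairs with neither copy in a low run (14 pairs) had neither state. There the A01 copy held a median of 60.0% and 60.5% in the hairy leaves and 40.6% and 39.0% in the glabrous leaves.

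**Figure D3:**
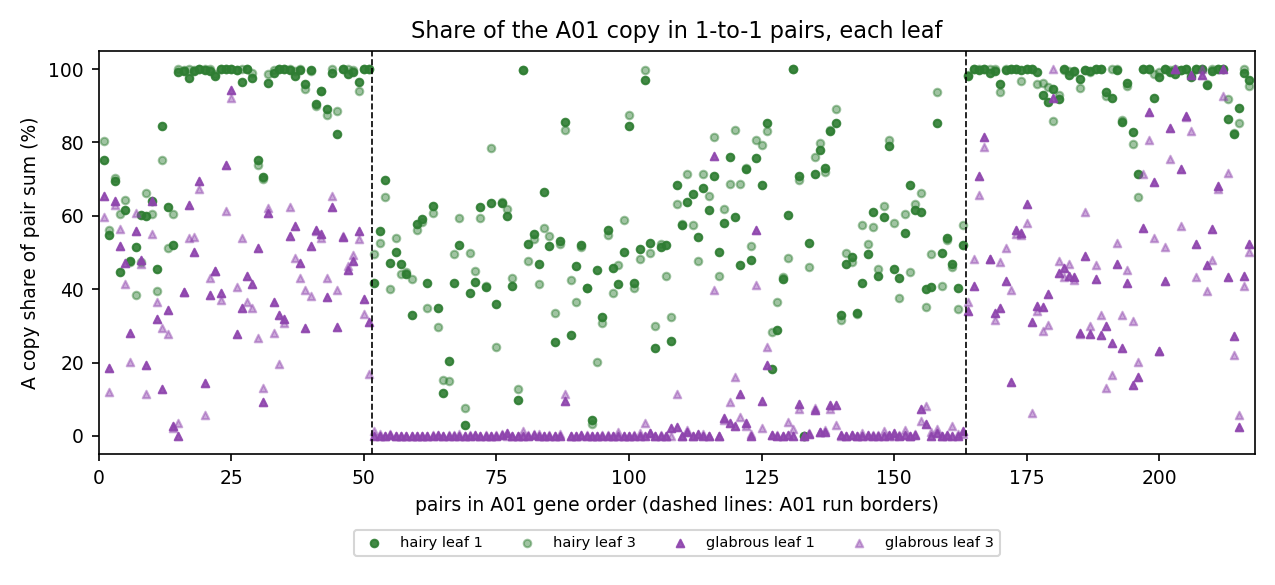
Share of the A01 copy in the pair sum (%, y axis) for each pair with a sum of at least 1 TPM in every leaf, in A01 gene order (x axis), with 1 point per leaf. Between the dashed lines, which enclose A01 run 2, glabrous points lie near 0 and hairy points around 52%; outside them most hairy points lie near 99% and glabrous points around 45%.

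RBR1, the retinoblastoma-related brake on cell division, had copies of opposite change in A01 run 2 and C01 run 3. Its A01 copy (BnaA01g059920.4DH) stood at 13.02 and 8.36 TPM in the hairy and 0 and 0.093 TPM in the glabrous leaves. Its C01 copy (BnaC01g071230.4DH) stood at 20.4 and 8.45 TPM and 20.7 and 40.0 TPM. The sums, 33.4 and 16.8 TPM and 20.7 and 40.1 TPM, overlapped between the lines. The trichome and epidermis list had 3 genes here, the copies of MYB5 on A01 and C01 and of SPY, a repressor of gibberellin signalling, on A01. All were at 0 apart from 0.42 TPM for the A01 copy of MYB5 in hairy 3, so no member of that list could be tested.

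The 6 pairs with the highest sums were mostly of protein synthesis. RPL4, a protein of the large ribosomal subunit, had an A01 copy (BnaA01g061930.4DH) at 329 and 303 TPM in the hairy and 0.47 and 1.65 TPM in the glabrous leaves. Its C01 copy (BnaC01g074260.4DH) stood at 427 and 362 TPM and 722 and 587 TPM. The sums were 755 and 665 TPM in the hairy and 722 and 589 TPM in the glabrous leaves, which overlapped although 1 copy was almost silent. For RPS14, of the small subunit, the A01 copy (BnaA01g060490.4DH) stood at 250.1 and 323 TPM and 0.33 and 1.05 TPM. Its C01 copy (BnaC01g071990.4DH) stood at 194 and 265 TPM and 502 and 321 TPM, lower in both hairy leaves.

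The copies of AT5G02960, another protein of the small subunit, stood at 203 and 235 TPM in the hairy and 0.24 and 0.59 TPM in the glabrous leaves on A01. On C01 they stood at 130.0 and 179 TPM and 310.0 and 185 TPM, and the sum was higher in both hairy leaves (333 and 414 against 310.2 and 186 TPM). AT3G12390, an alpha subunit of the nascent-polypeptide complex that meets proteins leaving the ribosome, had an A01 copy at 206 and 264 TPM and 0.24 and 1.07 TPM. Its C01 copy stood at 190.1 and 182 TPM and 483 and 272 TPM. These pairs all lie in A01 run 2.

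The pair matched to EIF4A-2, an RNA helicase of translation initiation, lies in C01 run 2 and had the opposite state. Its C01 copy (BnaC01g068830.4DH) stood at 6.47 and 4.41 TPM in the hairy and 175 and 125 TPM in the glabrous leaves, and its A01 copy (BnaA01g058580.4DH) at 340.2 and 298 TPM and 143 and 102 TPM. The last of the 6, 2CPA, a peroxiredoxin of the chloroplast, was unequal between its copies. The A01 copy (BnaA01g060440.4DH) reached only 8.85 and 6.76 TPM in the hairy leaves, while the C01 copy (BnaC01g071870.4DH) stood at 189.8 and 197 TPM and 508 and 409 TPM. Its sum was lower in both hairy leaves (-1.18), so that a pair whose main copy is on C01 differed in total.

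All 8 genes of the cytosolic ribosomal protein list on A01 were called higher in the hairy line, with a median change of 6.93. None of the 4 on C01 was called lower (median -0.80). Of all tested members, 66.7% on A01 were called higher and 40.4% on C01 lower, and every list count stands beside these shares. The 8 A01 genes of this list lie in runs 2 and 4, where 111 of 117 and 101 of 104 tested genes were called higher. The levels of these A01 copies lay between 25.5 and 329 TPM in the hairy leaves and between 0 and 16.6 TPM in the glabrous leaves. RPP0, a stalk protein of the large subunit, was the least silent, at 175 and 164 TPM and 16.6 and 5.42 TPM. RPL35 had the largest fold among them, with an A01 copy at 137 and 204 TPM and 0.11 and 0 TPM. Its sum stood at 174 and 253 TPM in the hairy and 106 and 55.2 TPM in the glabrous leaves. The 4 pair sums of the list had a median change of 0.47.

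Of 5 tested cell cycle and chromatin genes on A01, 4 were called higher, and of 4 on C01, 1 was called lower. CYCB1;3, a mitotic cyclin, had an A01 copy (BnaA01g060480.4DH) at 19.5 and 14.2 TPM and 0 and 0.15 TPM. Its C01 copy stood at 40.7 and 32 TPM in the hairy and 85.0 and 75.1 TPM in the glabrous leaves, and the sum was lower in both hairy leaves (-0.59). SGO1, which protects centromeric cohesion, had an A01 copy at 7.00 and 6.15 TPM and 0 and 0.087 TPM. CHR11 was the one called lower on C01, where it stood at 3.87 and 0.58 TPM and 9.02 and 34.3 TPM. Its A01 copy, at 20.2 and 14.5 TPM and 12.0 and 23.8 TPM, was on in every leaf.

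Of 6 tested transcription factors on A01, 3 were called higher, and of 4 on C01, 2 were called lower. GRF5, a growth-regulating factor that promotes cell proliferation in young leaves, had copies that changed in opposite ways. The A01 copy (BnaA01g058550.4DH) stood at 16.6 and 12.2 TPM in the hairy and 1.33 and 0.97 TPM in the glabrous leaves. The C01 copy (BnaC01g068800.4DH) stood at 0.054 and 0 TPM and 7.84 and 16.0 TPM. The sums overlapped, at 16.7 and 12.2 TPM and 9.17 and 17.02 TPM. MYB3R-3, a regulator of mitotic genes, had an A01 copy at 4.02 and 3.93 TPM and 0.038 and 0 TPM and a C01 copy at 4.83 and 2.85 TPM and 5.13 and 9.68 TPM. IAA16, an auxin-response repressor of A01 run 4, stood at 5.75 and 8.71 TPM in the hairy leaves and 0 in both glabrous leaves. COL9, a regulator of flowering, was called lower on C01, at 0.052 and 0.081 TPM against 1.55 and 2.16 TPM.

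**Figure D4:**
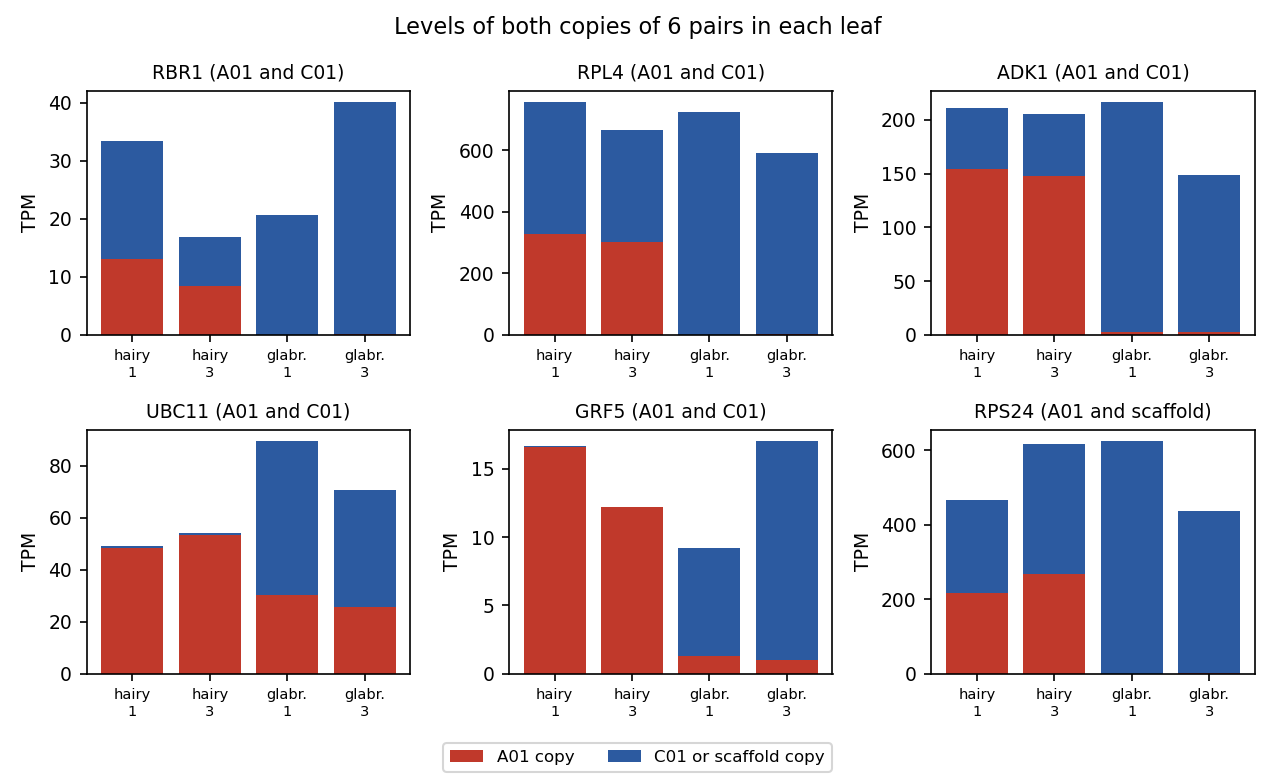
Levels in TPM of the A01 copy (red) and of its C01 or scaffold counterpart (blue), stacked, in each of the 4 leaves for 6 pairs. RBR1, RPL4, ADK1 and RPS24 have almost no A01 level in the glabrous leaves, UBC11 and GRF5 almost no C01 level in the hairy leaves, and stacked heights of the lines overlap except for UBC11.

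For photosynthesis and plastid genes, 6 of 7 tested A01 members were called higher and 1 of 4 on C01 lower. The leaf markers LHCB1.1 and RCA were lower in both hairy leaves, as given above, and their part in these counts was not tested. The one on C01 was PGK1, a phosphoglycerate kinase, at 20.9 and 25.7 TPM in the hairy and 59.2 and 102 TPM in the glabrous leaves. Its A01 copy stood at 26.5 and 28.4 TPM and 0.042 and 0.43 TPM. GOX1 lies in run 1 on both chromosomes, where neither copy was in a low run. Its A01 copy stood at 70.9 and 77.9 TPM and 14.8 and 15.9 TPM, and its C01 copy at 58.7 and 60.8 TPM and 64.7 and 117 TPM. GOX1 and its neighbour GOX2 are near-identical, so reads may have been placed on either.

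For the cytoskeleton, trafficking and wall list, 6 of 8 tested A01 members were called higher and 2 of 5 on C01 lower. BGAL1, a beta-galactosidase of the wall, had a C01 copy at 0.15 and 0.024 TPM and 12.0 and 23.3 TPM. Its A01 copy stood at 42.8 and 19.0 TPM in the hairy and 4.60 and 16.0 TPM in the glabrous leaves. KOB1, needed for cellulose deposition in expanding cells, was at 0 in both hairy leaves on C01, where the glabrous leaves had 1.904 and 3.78 TPM. Its A01 copy was on in every leaf, at 23.9 and 12.8 TPM and 8.32 and 14.1 TPM. PME3, a pectin methylesterase of A01 run 1, stood at 40.8 and 36.7 TPM and 2.29 and 2.49 TPM, while its C01 copy was on in both lines at 30.5 and 28.4 TPM and 17.3 and 18.6 TPM.

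For protein turnover and folding, none of 3 tested A01 members was called and 2 of 4 on C01 were lower. These were UBC11, given above, and HSP89.1, a mitochondrial chaperone, at 4.90 and 1.29 TPM in the hairy and 21.5 and 29.9 TPM in the glabrous leaves. The A01 copy of HSP89.1 stood at 49.2 and 25.7 TPM and 13.7 and 12.9 TPM, and the sums overlapped. In core metabolism and redox, both tested A01 members were called higher and 1 of 3 on C01 lower. ADK1, an adenosine kinase that recycles a by-product of methylation, had an A01 copy at 154 and 148 TPM and 2.51 and 2.46 TPM. Its C01 copy stood at 57.0 and 57.5 TPM and 214 and 147 TPM, and the sums, 211 and 205 TPM and 216 and 149 TPM, overlapped.

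MSD1, the manganese superoxide dismutase of mitochondria, had an A01 copy at 53.7 and 59.1 TPM and 0 and 0.23 TPM and a C01 copy at 50.4 and 53.9 TPM and 121 and 88.4 TPM. Its sum changed by 0.06. Among hormone genes, 2 of 3 tested A01 members were called higher and the 1 on C01, NCED3, was not called. The A01 members called were STE1, an enzyme of sterol and brassinosteroid synthesis, at 8.76 and 7.60 TPM in the hairy and 0 and 0.085 TPM in the glabrous leaves, and EIN4, an ethylene receptor, at 3.34 and 1.62 TPM and 0 and 0.036 TPM. No A01 member of the lipid list or of the defence and glucosinolate list was tested. On C01 each of these 2 lists had 1 tested member, FAD2 (-0.54) and NHL1 (-0.11), and neither was called.

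Some pairs differed between the lines in total. Only pairs with a mean sum of at least 5 TPM and no overlap between lines were ranked, by the change of the sum. The largest changes with the hairy line higher were those of AT3G12030, AT3G08870 and AT3G12145. AT3G12030, a membrane protein of unknown function, had an A01 copy at 50.0 and 66.3 TPM and 0 and 0.13 TPM. Its C01 copy was low in the hairy line, at 0.12 and 0.09 TPM and 16.5 and 9.51 TPM, although it lies in C01 run 3. FLOR1 (AT3G12145), a leucine-rich repeat protein, had an A01 copy at 126 and 124 TPM and 0.12 and 0.34 TPM. Its C01 copy was at 72.6 and 70.4 TPM in the hairy and 47.5 and 62.4 TPM in the glabrous leaves, so here the copy that stayed on was not higher in the glabrous line.

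AT3G08870, a lectin-type receptor kinase, had a C01 copy at 4.33 and 5.28 TPM and 1.01 and 1.58 TPM, also higher in the hairy line. The largest changes of the sum with the hairy line lower were those of AT3G12920, AT3G12510 and AT3G10080, at -1.78, -1.43 and -1.20. In AT3G12920, an S-ribonuclease-binding protein, the A01 copy stood at 5.44 and 5.44 TPM and 6.73 and 8.24 TPM and was not higher in the hairy line. In AT3G12510, annotated as a MADS-box protein, the A01 copy reached at most 1.09 TPM, so nearly all of the sum was the C01 copy. In the cupin AT3G10080 the A01 copy was at 0 in every leaf. For both of these, the sum followed the C01 copy.

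The outermost A01 run had almost no partner on C01. Of its 176 codes, 5 are shared with the C01 block, whose numbered genes end soon after the copy of AT3G06400. Copies of its codes were found instead on unplaced scaffolds, and 4 of them (S00017, S00019, S00038 and S00051) hold genes whose best match is mostly Brassica oleracea, 69.4% of 245 genes. These were chosen by their codes and best matches, not by their levels, and they are not members. Of 113 tested genes on them, 9 were called lower in the hairy line and 1 higher, 8.85% called where the background is 9.72%. Both hairy leaves lay below both glabrous leaves at 76 of the 113 (67.3%), against 17.4% of all tested genes. A further scaffold, S00013, holds 11 codes of this run among its 83 genes and was not used. Its best matches were Brassica rapa for 26 genes and Brassica oleracea for 1. Its 46 tested genes had a median change of 0.12, with 5 called higher and 1 lower.

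Of 99 pairs of an A01 run 4 gene with a scaffold gene, the median change was 3.19 for the A01 copy, -0.88 for the scaffold copy and -0.04 for the sum (quartiles -0.26 and 0.48). The scaffold copy had a median glabrous-to-hairy fold of 1.93 (quartiles 1.66 and 2.32) and was higher in the glabrous line in 84 of 86 pairs with that copy at 1 TPM or more in every leaf. Over all genes at 1 TPM or more in every leaf, 48.9% had the higher mean in the glabrous line. With single leaves the median fold ranged from 1.55 to 2.53. The A01 copy held a median of 47.9% and 48.4% of the sum in the hairy leaves and 0% and 0.21% in the glabrous leaves. Summed over both blocks and the 4 scaffolds used, the level was 15657 and 14775 TPM in the hairy leaves. In the glabrous leaves it was 14165 and 13927 TPM.

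RPS24, of the small ribosomal subunit, had an A01 copy (BnaA01g063990.4DH) at 218 and 269 TPM in the hairy and 0.10 and 1.78 TPM in the glabrous leaves. Its scaffold copy stood at 249 and 347 TPM and 624 and 436 TPM, and the sums were 467 and 615 TPM and 624 and 438 TPM. RPS7 had an A01 copy at 146 and 178 TPM and 0.48 and 1.28 TPM and a scaffold copy at 238 and 300.3 TPM and 593 and 389.9 TPM. HDA19, a histone deacetylase, had an A01 copy at 58.6 and 30.7 TPM and 0.12 and 0.46 TPM. Its scaffold copy was the main one, at 152 and 107 TPM in the hairy and 164 and 235 TPM in the glabrous leaves. RPS24, RPS7, HDA19 and the other run 4 pairs given with their scaffold copies were chosen after their values were seen.

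TRXF1, a thioredoxin that activates Calvin cycle enzymes, had an A01 copy at 39.5 and 57.4 TPM and 0.093 and 0.55 TPM and a scaffold copy at 35.8 and 50.7 TPM and 85.5 and 113 TPM. The GAR1 and RPA32B copies that were on in the hairy line alone also had scaffold copies on in all 4 leaves. That of GAR1 stood at 31.95 and 39.5 TPM and 87.4 and 50.2 TPM, and that of RPA32B at 19.1 and 16.8 TPM and 54.2 and 41.4 TPM, each higher in both glabrous leaves than in both hairy leaves. There were exceptions. The scaffold copy of RPL23 stood at 8.17 and 10.4 TPM in the hairy leaves and 0 in both glabrous leaves, in the same direction as its A01 copy. The scaffold copy of AT3G03773, a small chaperone, stood at 0.12 and 0 TPM and 21.8 and 22.6 TPM, so it was the reverse of its A01 copy.

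Copies of the members' genes elsewhere in the genome did not enter the choice of members. Of 1520 tested copies outside both blocks, 100 were called higher and 125 lower in the hairy line, 14.8% against a background of 9.72%. For Arabidopsis codes held by at most 8 genes, 12.5% of 958 tested copies were called. Within this set the called share was 8.33% of 120 copies on unplaced scaffolds. It was 5.15% of the copies on A03, 5.52% on C03 and 3.29% on A05, below the background. On C05 it was 36.8%, with 26 higher and 45 lower of 193. Without the copies on C05, 134 copies were called in all, and their share of the tested copies was not computed. Stretches of C05 and A05 were also picked for differing between these lines, so calls within them are description. Whether these copies lie in those stretches was not checked. The number called over all copies was 83 without hairy 1, 85 without hairy 3 and 146 without glabrous 1.

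The 3 called copies outside with the highest levels were ribosomal. They were picked for being called, so the adjusted p-values given for them are no separate support. The A05 copy of RPP0 (BnaA05g054490.4DH) stood at 535 and 509 TPM in the hairy and 171 and 163 TPM in the glabrous leaves, a change of 1.64 ± 0.41 (SE; limma adjusted p = 0.0226). The C05 copy of RPS24 (BnaC05g081360.4DH) stood at 353 and 541 TPM and 129 and 62.8 TPM, a change of 2.27 ± 0.46 (SE; limma adjusted p = 0.00711). The C05 copy of RPS3A (BnaC05g081420.4DH) stood at 277 and 274 TPM and 82.6 and 44.5 TPM, a change of 2.16 ± 0.42 (SE; limma adjusted p = 0.00529). All 3 were higher in both hairy leaves, and none was called without hairy 1 or without hairy 3. With the replicate number as a block, the RPP0 copy had an adjusted p of 0.125 in limma and the others stayed called.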

How the data were processed

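Poly-A RNA of single leaves was sequenced as paired ends. Trimming used cutadapt 1.9, per the submitters' processing notes; which aligner, build and gene models followed is not given in the sources used here. TPM per transcript and leaf were computed by the authors, and per the file headers the same table holds the authors' mean TPM per line, the larger of these means (a signal on the TPM scale), a signed fold change score, a log2 fold change, and a p-value with its false discovery rate. The authors' means equal the means of the leaves shown, to within 2.3e-13 TPM. TPM keeps no depth, so the precision of single values is unknown.

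TPM were summed per gene (185771 transcripts, 145279 genes). limma 3.58.1 in R 4.3.3 was fitted to log2(TPM + 1) of the 4 leaves, with trended and robust variance priors, for genes at 1 TPM or more in 2 or more leaves (1 leaf where leaving out a leaf leaves 1 in a group), with Benjamini-Hochberg adjustment over all tested genes; it was tested on simulated data. p-values measure the spread between 2 leaves per line. Runs were found by dynamic programming over low and not-low states of tested genes, each change of state costing 4 mismatches. Only genes low in the glabrous line were scanned for on A01, and only genes low in the hairy line on C01. Homoeologs were matched by Arabidopsis code, in pairs with exactly 1 member on each chromosome. How reads were shared between near-identical copies is not given, and such copies are uncertain.

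The members and gene lists were chosen with earlier results of these data known. Genes named are RBR1 and the trichome list, the 6 highest pairs, the 5 highest genes on in one line per block, 3 tested genes on each side of each edge, up to 2 pairs per gene list, the pairs whose sum changed most, the members called against their block and the 3 highest called copies outside. Those at run borders, on scaffolds and further list members were picked with their values known. Settings varied were the leaves (1 left out at a time), a replicate block, other pseudocounts, filters, scalings and priors.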

Additional observations from a re-analysis of the deposited data

How the results depend on the processing

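No called named gene and neither block median changed direction in the settings tried. Leaving out 1 leaf at a time, which leaves a lone leaf assumed to vary like the others, gave 1413 to 3746 calls over all genes, 130 to 217 called higher on A01, 37 to 81 called lower on C01 and 83 to 189 called copies outside. List members called higher on A01 numbered 26 to 30 and called lower on C01 3 to 6. The block medians ranged from 1.97 to 2.22 on A01 and from -1.40 to -1.04 on C01, and the pair sum median from -0.17 to 0.28. The median A share ranged from 71.0% to 73.1% in the hairy and from 7.54% to 8.80% in the glabrous line. These medians pool all kinds of block pairs and lie between the shares of the separate kinds given above. Genes on in one line numbered 130 to 181 on A01 and 44 to 64 on C01, against 125 and 39 with all leaves. Leaving out a leaf cannot lower these counts, so their ranges do not measure stability. The folds of the copy that stayed on ranged from 1.66 to 2.29 on A01, 1.73 to 2.31 on C01 and 1.65 to 2.31 on the scaffolds. The number of tested genes in low runs ranged from 221 to 222 on A01 and was 95 on C01.

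Blocking on the replicate number, 3538 genes were called in all, 231 higher on A01, 93 lower on C01 and 198 copies outside; the same-number leaves deviated in opposite ways (correlation across genes -0.41), so the numbers do not pair the leaves. A crossed block, added after seeing the data, called 6960 genes, 277 on A01, 152 on C01, 341 copies outside and 14 list members on C01. A pseudocount of 0.1 TPM moved the A01 median to 4.59 and testing without the low-value filter moved it to 1.39. With off set at under 0.5 TPM, 191 A01 and 73 C01 genes were on in one line; with off at 0 exactly, 69 and 26; with on at 5 TPM, 53 and 16. Pairs with a sum of at least 5 TPM gave a pooled median hairy A share of 67.6% against 72.5%. Outside copies numbered 134 called without C05, and 120 for codes with at most 8 genes. Of 47 called named genes, 28 kept the call in all 10 settings, the crossed block included. TPM keep no depth, so how far depth limits the low values is unknown.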
